A study of Homo sapiens with 9 samples.

Results

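RNA sequencing compared cells under the label HCT-15, which names a long-established line from a human colorectal adenocarcinoma, with a line derived from them that tolerated cobalt chloride (CoCl2). The 3 untreated control and 3 CoCl2-tolerant libraries were chosen by their titles and make up 6 of the 9 libraries of the series. Both groups carry the wild-type genotype label and share their medium, RPMI1640 with 10% fetal bovine serum under 5% CO2. The derived line was obtained by growth in stepwise higher CoCl2 until the cells survived it. It is a single derived line, so CoCl2 tolerance and any other change during its culture cannot be told apart. No label states whether a group's libraries are separate cultures, so the p-values reflect library-to-library spread alone, and that spread may be technical. The comparison is described here through 6 classes of genes by which cells regulate transcription and deal with their surroundings: transcription factors, surface receptors, adhesion molecules, secreted factors, matrix and transporters. Of 3139 list entries in these classes, 1895 genes had enough counts to test.

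Cobalt ions can replace iron in oxygen-sensing hydroxylases, whose activity leads to breakdown of the hypoxia-inducible factors (HIF), and they burden cells with oxidative stress. Signals from outside reach a cell through secreted ligands that bind surface receptors, which switch transcription factors on or off. Adhesion molecules and the extracellular matrix fix a cell to its neighbours and its substrate, and transporters and channels set what crosses its membranes. Genes of the hypoxia, NRF2 (oxidative stress) and ATF4 (amino acid stress) programmes are left out of the genes chosen for size of change below. Of 64, 36 and 46 genes tested in those lists, 57, 28 and 43 rose, against 24.9% of all genes tested. In the ATF4 list 1 gene fell. The lists were chosen with earlier results of these data known, so these counts are no test of the programmes.

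Total counts ranged from 25178615 to 32674687 per library, and mitochondrially encoded genes took 8.08 to 9.80% of them in control and 4.64 to 6.67% in CoCl2-tolerant libraries. CoCl2-tolerant replicate 1 stood apart from its group. On the second principal component of log2 CPM, which held 11.97% of the variance, it lay at -34.7, against 18.9 and 16.7 for replicates 2 and 3 and -4.53 to 2.82 for the controls. The first component held 73.4% and separated the groups. Without replicate 1, 10289 genes passed the test, 5230 higher and 5059 lower, against 8552 with it.

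The intestinal label was checked against marker genes. Of 25 intestinal and colorectal markers in the files, 19 were under 1 CPM (a gene's counts scaled to library size) in both groups. The intestinal master regulators CDX1 and CDX2 had no counts in any library, where 3 counts correspond to 0.0918 to 0.119 CPM. VIL1, the brush border protein villin, stood at 0.0843 and 0.185 CPM in control and CoCl2-tolerant cells (with 44.003% of exon bases shared), and the intestinal regulator HNF4A at 0.118 and 0.108 CPM. The intestinal markers summed to 48.8 to 52.8 CPM in control libraries and 33.3 to 35.1 CPM in CoCl2-tolerant libraries, and of 9 tested 6 fell and 0 rose. PAX8, a developmental factor of kidney epithelium, was at 581 and 590.4 CPM in the respective groups and did not pass. The list of kidney, thyroid and Müllerian markers summed to 1074 to 1158 CPM in control and 944 to 1023 CPM in CoCl2-tolerant libraries, and of 7 tested 4 fell and 1 rose. The falls were FOLR1, CDH16, LHX1 and MSLN, and WT1 and MUC16 were near 0, at 0.0317 and 0.0119 CPM and at 0.0201 and 0.0121 CPM. The name HCT-15 is the submitters' label, and most intestinal markers in these libraries were at or near 0.

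Other lineage markers were measured in the same way. Of 9 general epithelial markers tested, 6 fell and 1, the keratin KRT19, rose, from 563 to 933 CPM. The list summed to 1466 to 1504 CPM in control and 1432 to 1736 CPM in CoCl2-tolerant libraries, most of it from keratins. KRT8 fell from 673 to 505 CPM, and KRT18 was at 109 and 101 CPM and did not pass. EPCAM, an epithelial adhesion protein, fell from 55.98 ± 3.18 to 22.3 ± 2.05 CPM. Among mesenchymal markers 3 of 9 tested rose and 5 fell, with sums of 3990 to 4139 CPM in control and 3063 to 3197 CPM in CoCl2-tolerant libraries. COL1A1 alone fell from 1899 to 256 CPM, a larger fall than that of the sums. The rises were VIM, ZEB2 and CDH2. VIM, the intermediate filament vimentin, rose from 1207 ± 66.4 to 2014 ± 116 CPM (24.4% of exon bases shared), while the surface glycoprotein THY1 fell from 658 ± 28.2 to 455 ± 39.2 CPM. Endothelial markers summed to at most 2.32 CPM in every library, with CDH5 and EMCN at 0 counts. Among leukocyte markers CD3D had no counts and PTPRC was at 0.313 and 0.144 CPM, and 1 of 5 tested, LCP1, rose from 4.81 to 13.6 CPM. The neural list summed to 126 to 130.0 CPM in control libraries and 440 to 588 CPM in CoCl2-tolerant libraries, nearly all of it from the glycolytic enzyme ENO2 (122 to 489 CPM), with NEUROD1 at 0 counts. Of 3 melanocyte markers tested 2 fell, and the list summed to 48.0 to 49.5 CPM in control and 28.9 to 33.2 CPM in CoCl2-tolerant libraries. In bulk RNA, fewer cells of a type and less RNA per cell cannot be told apart.

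Of 17314 genes tested across the genome, 8552 passed edgeR's quasi-likelihood test at an adjusted p under 0.05 with Benjamini-Hochberg adjustment (49.4%). Rises made up 4308 (24.9%) and falls 4244 (24.5%), with 806 genes at least 2-fold higher (4.66%) and 1160 at least 2-fold lower (6.7%). Against these shares, 449 of the 1895 class members rose and 734 fell, which is 23.7 and 38.7%. Falls outnumbered rises most among matrix genes, of which 106 of 208 fell (50.96%) and 36 rose (17.3%). Adhesion molecules came next, with 76 of 161 lower and 27 higher. Surface receptors fell in 151 of 385 cases and rose in 90, transcription factors fell in 153 of 405 and rose in 96, and transporters fell in 165 of 472 and rose in 117. Secreted factors were split evenly, with 83 higher and 83 lower of 264. In that class 12.9% were at least 2-fold higher and 17.4% at least 2-fold lower. The median log2 fold change (CoCl2-tolerant minus control) was -0.33 for matrix genes and -0.37 for adhesion molecules, against 0.01 for all genes tested. Without CoCl2-tolerant replicate 1 the counts higher and lower were 36 and 121 for matrix, 36 and 84 for adhesion molecules, 101 and 167 for receptors, 107 and 160 for transcription factors, 130 and 200 for transporters and 93 and 94 for secreted factors.

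**Figure D1:**
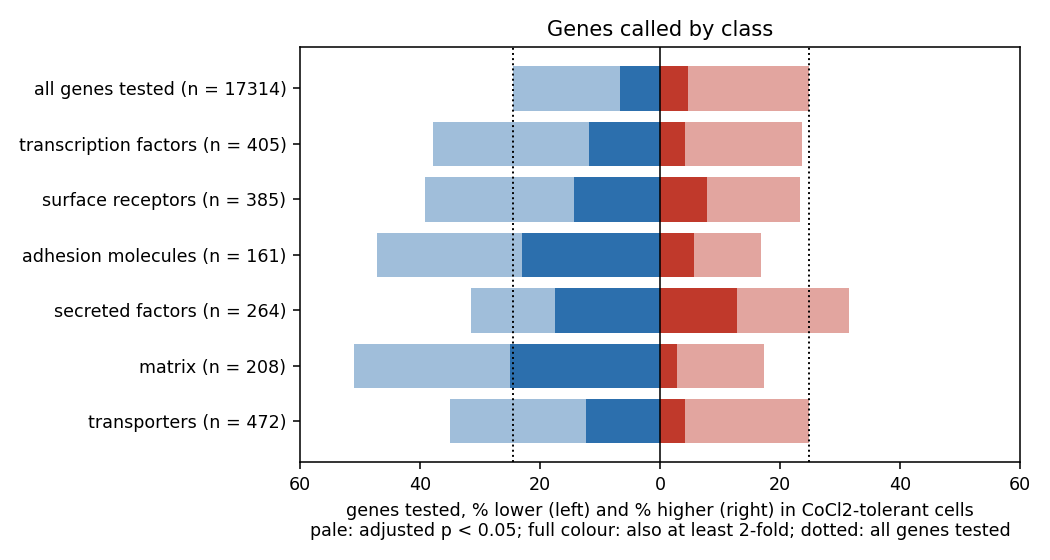
Percentage of tested genes lower (left, blue) and higher (right, red) in the CoCl2-tolerant line for each class, with the share past an adjusted p of 0.05 in pale colour and the share also at least 2-fold in full colour. Dotted lines mark all genes tested (24.5% lower, 24.9% higher), and matrix genes reach 51.0% lower.

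The length of a transcript moved with the direction of change. Among genes with at least 5 CPM in a group, the median log2 fold change was 0.23 in the shortest of 4 equal bins by transcript length (65 to 2429 bases), 0.09 in the second, -0.03 in the third and -0.22 in the longest (5549 to 109224 bases). In that longest bin 47.4% of all genes fell, against 61.8% of 55 matrix genes, 61.9% of 84 transcription factors and 46.4% of 112 transporters. In the third bin 28.7% of all genes fell, against 58.5% of 41 matrix genes and 42.6% of 68 receptors. With a trend on length and GC content removed from each library, matrix counted 44 higher and 105 lower, adhesion molecules 40 and 72, receptors 105 and 149, transcription factors 106 and 154, and transporters 146 and 170. Secreted factors counted 77 higher and 99 lower in that setting, so their even split did not hold there. The part of length in the class counts was not tested beyond these values.

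**Figure D2:**
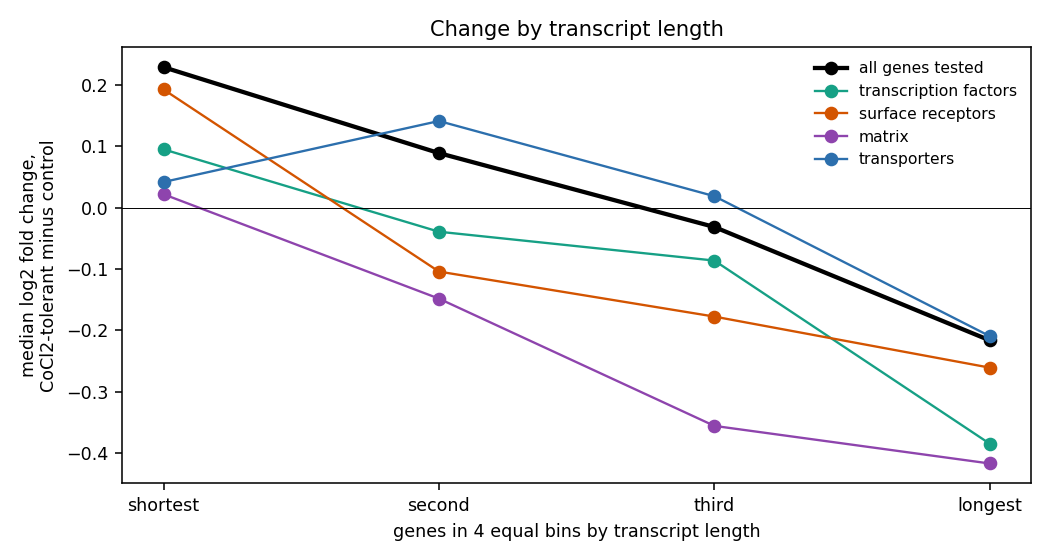
Median log2 fold change (y axis, CoCl2-tolerant minus control) in 4 equal bins of genes by transcript length (x axis) for all genes with at least 5 CPM and for 4 classes. The line for all genes runs from 0.23 to -0.22, and the matrix line lies under it in every bin, with 18 matrix genes in the shortest.

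A level written with ± is a group's mean CPM and its SD (n = 3 libraries), log2 fold changes are CoCl2-tolerant minus control ± SE, and adjusted p-values come from edgeR's quasi-likelihood test. CPM is not corrected for gene length, so levels are compared within a gene. Genes named by rule for size of change had to show no overlap between the groups, so their lack of overlap is no separate result. Groups did not overlap for 58.2% of all genes tested.

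Transcription factors that fell included epithelial, WNT-linked, calcium-responsive and growth factor responsive genes. ELF3, an ETS factor of epithelial differentiation (chromosome 1, bases 202007945 to 202017188 on the plus strand in GRCh38), measured 56.4, 57.4 and 58.7 CPM in the control libraries and 13.3, 13.1 and 13.5 CPM in the CoCl2-tolerant libraries. Every tolerant library lay under every control library (log2 fold change -2.11 ± 0.08, adjusted p = 5.47e-09). TCF7, a DNA-binding partner of beta-catenin in WNT signalling, fell from 12.3 ± 0.742 to 3.56 ± 0.598 CPM (-1.78 ± 0.13, adjusted p = 9.68e-07). NFATC2, which calcineurin switches on when calcium rises, fell from 11.2 ± 0.206 to 3.16 ± 0.536 CPM. CREB3L1, a membrane-bound factor released from the ER and Golgi that drives collagen and secretory genes, fell from 6.08 to 1.69 CPM, and its relative CREB3L2 from 116 to 49.6 CPM. The zinc finger factor IKZF2 fell from 6.096 to 1.51 CPM. REL, an NF-kappaB subunit, fell from 6.59 to 1.73 CPM, but 43.3% of its exon bases overlap another gene, so its reads cannot be assigned with certainty.

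Genes that growth factors induce rapidly moved in both directions, and EGR1, NR4A1, FOS, FOSB and JUNB were among those that fell. EGR1, a zinc finger factor induced within minutes by growth factors, measured 49.7, 47.2 and 54.2 CPM in the control libraries and 15.2, 16.7 and 13.97 CPM in the CoCl2-tolerant libraries. Every CoCl2-tolerant library lay under every control library (log2 fold change -1.72 ± 0.09, adjusted p = 1.10e-07). The orphan nuclear receptor NR4A1 fell from 9.795 ± 0.386 to 3.01 ± 0.622 CPM, the AP-1 subunits FOSB and FOS from 28.7 to 17.8 CPM and from 41.9 to 31.6 CPM, and JUNB from 46.96 to 36.9 CPM. SRF, the serum response factor that binds the promoters of many such genes at the CArG box, measured 78.04, 76.8 and 80.9 CPM against 62.4, 55.1 and 52.7 CPM in control and CoCl2-tolerant libraries (-0.47 ± 0.08). Its coactivators MRTFA and MRTFB fell from 90.3 to 74.8 CPM and from 44.4 to 25.1 CPM. The upstream sequences of 6 of these genes were searched for CArG boxes. EGR1 and SRF are shown because their windows held 2 or more, which was the rule for printing, and the boxes are in capitals. The sequences are the 250 bases before a RefSeq transcript start (GRCh38.p14), 5′ to 3′ on the plus strand, at chr5:138465229-138465478 for EGR1 and chr6:43171019-43171268 for SRF.
EGR1: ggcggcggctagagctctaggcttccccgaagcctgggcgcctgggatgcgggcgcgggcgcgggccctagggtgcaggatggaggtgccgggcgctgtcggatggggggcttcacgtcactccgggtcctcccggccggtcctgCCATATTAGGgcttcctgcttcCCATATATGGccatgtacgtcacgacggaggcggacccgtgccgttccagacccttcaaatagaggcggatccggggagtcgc
SRF: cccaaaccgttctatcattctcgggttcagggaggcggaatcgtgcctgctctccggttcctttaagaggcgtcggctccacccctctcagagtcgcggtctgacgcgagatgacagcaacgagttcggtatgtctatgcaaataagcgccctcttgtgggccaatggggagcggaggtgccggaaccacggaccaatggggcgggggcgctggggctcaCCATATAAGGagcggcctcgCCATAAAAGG
Each window held 2 CArG boxes. A box was found in 407 of 35116 windows of the same length (1.16%), and 11 windows held 2 or more (0.0313%). As EGR1 and SRF were printed for holding boxes, these shares are a background for the letters and no test. The box reads the same way on both strands by its definition, so each match was counted once. FOS, FOSB, JUNB and NR4A1 fell too, and their windows and the second window of SRF held none, which says only that these letters are not in those 250 bases. A match is a description of the sequence, not of binding.

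Some AP-1 subunits and stress-responsive factors rose. FOSL1, the AP-1 subunit Fra-1, measured 97.8, 88.7 and 99.4 CPM in the control libraries and 226, 243 and 229 CPM in the CoCl2-tolerant libraries. All CoCl2-tolerant values lay above all control values (log2 fold change 1.29 ± 0.07, adjusted p = 1.44e-07). Its partner JUN rose from 165 ± 1.97 to 299 ± 24.7 CPM, so within AP-1 the subunits FOSL1 and JUN rose while FOS, FOSB, JUNB and FOSL2 (522 to 355 CPM) fell. MYC, the growth regulator, rose from 75.6 ± 5.01 to 138 ± 7.41 CPM (0.87 ± 0.08). NFIL3, a repressor linked to the circadian clock and immune cells, rose from 20.7 to 48.8 CPM, and the atypical E2F repressor E2F7 from 53.1 to 101 CPM. E2F2 and MYBL2, activators of cell cycle genes, fell from 9.47 to 3.84 CPM and from 161 to 73.2 CPM. The developmental factors FOXD1, ZIC2 and TFAP2A rose from 11.1 to 26.9 CPM, from 6.37 to 12.2 CPM and from 8.23 to 15.2 CPM. Of 42 basic leucine zipper factors tested, 17 rose and 11 fell, and the 6 that are also in the hypoxia, NRF2 or ATF4 lists all rose. Outside those lists the family was balanced, with 11 higher and 11 lower of 36.

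Families of developmental and signal-responsive factors leaned to lower levels. Of 37 GATA, RUNX, TBX, GLI and TEAD factors, 21 fell and 5 rose. All 3 hedgehog effectors fell, GLI1 from 9.88 to 3.498 CPM, GLI2 from 74.01 to 52.9 CPM and GLI3 from 39.7 to 27.7 CPM. The YAP partners TEAD1, TEAD2 and TEAD4 fell from 205 to 129 CPM, from 25.6 to 14.9 CPM and from 40.03 to 26.7 CPM, whereas YAP1 itself measured 69.7 and 65.5 CPM and did not pass. Of 24 KLF, SP and EGR factors, 13 fell and 4 rose, the rises being KLF4, KLF6, KLF10 and KLF11. With the length and GC trend removed, that family counted 9 lower and 6 higher. NFAT5, the factor of osmotic stress, fell from 84.9 to 37.1 CPM. Among 36 HOX genes, 8 rose and 9 fell, a share of 47.2% near the 49.4% of all genes, and with that trend removed 5 rose and 15 fell. Among 22 factors of epithelial and mesenchymal states, 5 rose and 3 fell, a share of 36.4%, under the 49.4% of all genes. In that family SNAI2, a repressor of epithelial genes, rose from 15.9 to 29.1 CPM and SNAI1 fell from 4.44 to 2.097 CPM. ZEB1 was at 36.9 and 31.9 CPM and did not pass.

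Growth factor receptors fell more often than they rose. Of 32 receptor tyrosine kinases tested, 20 fell and 3 rose, with a median log2 fold change of -0.48. FGFR2, a receptor for fibroblast growth factors (chromosome 10, bases 121478334 to 121598458 on the minus strand in GRCh38), measured 101, 97.97 and 102 CPM in the control libraries and 17.5, 16.9 and 15.1 CPM in the CoCl2-tolerant libraries. All tolerant values lay under all control values, with no overlap (log2 fold change -2.60 ± 0.08, adjusted p = 1.74e-09). FGFR4 fell from 96.7 ± 3.46 to 42.3 ± 4.57 CPM. ERBB3, the neuregulin receptor that signals through its ERBB partners, fell from 10.04 ± 0.251 to 2.31 ± 0.595 CPM (-2.13 ± 0.16), ERBB2 from 117 to 81.3 CPM and EGFR from 566 ± 15.001 to 351 ± 22.96 CPM. PDGFRB, a receptor of platelet-derived growth factors, fell from 5.94 to 1.71 CPM. AXL, a receptor of GAS6, was at 413 and 408 CPM and did not pass. With the length and GC trend removed, 16 of these kinases were lower and 4 higher.

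Receptors of the WNT and hedgehog pathways also fell more often than they rose. Of 22 WNT and hedgehog receptors tested, 14 fell and 3 rose. LRP6, the WNT co-receptor, measured 131, 139.9 and 132 CPM against 55.9, 62.3 and 56.6 CPM in control and CoCl2-tolerant libraries (log2 fold change -1.20 ± 0.07, adjusted p = 2.41e-07). Its relative LRP5 fell from 49.6 to 35.2 CPM, the frizzled receptors FZD2, FZD4 and FZD7 from 91.1 to 63.96 CPM, from 6.74 to 3.82 CPM and from 89.1 to 65.7 CPM, and the hedgehog transducer SMO from 43.3 to 29.4 CPM. The rises were FZD1, from 26.3 to 44.6 CPM, FZD3, from 0.750 to 1.29 CPM, and the hedgehog co-receptor BOC, from 6.03 to 10.2 CPM. The groups overlapped for FZD3 (0.732, 0.512 and 1.01 CPM against 1.602, 1.33 and 0.941 CPM in control and CoCl2-tolerant libraries), and without CoCl2-tolerant replicate 1 its adjusted p was 0.10. NOTCH2 fell from 454 ± 14.7 to 221 ± 21.2 CPM (-1.04 ± 0.08), while NOTCH1 was at 62.7 and 62.4 CPM and did not pass. Of 15 adhesion G protein-coupled receptors, 9 fell and 1, ADGRE5, rose. CELSR2, a large cadherin-like receptor of planar cell polarity, fell from 72.8 ± 2.52 to 16.9 ± 1.43 CPM (-2.11 ± 0.09), and the latrophilin ADGRL1 from 20.8 to 5.57 CPM.

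Receptors of the tumour necrosis factor (TNF) superfamily rose more often than they fell. Of 19 tested, 13 rose and 4 fell, against 24.9% higher over all genes. FAS, a death receptor, measured 33.8, 31.4 and 31.3 CPM in the control libraries and 59.2, 72.7 and 68.8 CPM in the CoCl2-tolerant libraries. No library of the groups overlapped (log2 fold change 1.06 ± 0.09, adjusted p = 2.90e-06). TNFRSF10B, a death receptor for the ligand TRAIL, rose from 202 ± 8.21 to 335 ± 29.4 CPM, its decoy relative TNFRSF10D from 40.95 to 66.4 CPM, TNFRSF14 from 10.5 to 23.2 CPM and EDA2R from 25.7 to 44.8 CPM. TNFRSF19 fell from 206 ± 10.7 to 119 ± 5.11 CPM. Without CoCl2-tolerant replicate 1 the family counted 13 higher and 3 lower.

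Surface antigens were split, with 25 higher and 24 lower of 72. CD274, the immune checkpoint ligand PD-L1, measured 6.88, 6.62 and 5.397 CPM in the control libraries and 22.7, 25.97 and 24.6 CPM in the CoCl2-tolerant libraries. It rose more than any other tested member of that list, with no overlap (log2 fold change 1.96 ± 0.11, adjusted p = 1.47e-07). NT5E, the enzyme CD73 that makes adenosine outside cells, rose from 35.01 ± 1.66 to 95.9 ± 6.25 CPM, the hyaluronan receptor CD44 from 227 ± 3.47 to 527 ± 28.3 CPM (1.21 ± 0.07), and PLAUR, the urokinase receptor, from 30.99 ± 2.38 to 67.5 ± 4.06 CPM. F3, the tissue factor that starts blood coagulation, rose from 2.58 to 8.61 CPM, and PDCD1LG2, the ligand PD-L2, from 2.79 to 5.73 CPM. FOLR1, the folate receptor, measured 83.5, 81.96 and 89.3 CPM against 16.7, 15.4 and 13.1 CPM and fell (-2.50 ± 0.10, adjusted p = 9.49e-09). Falls were also found for the surface glycoprotein CD24, from 1380.3 ± 22.2 to 681 ± 98.7 CPM, and the tetraspanin CD9, from 127 ± 5.79 to 58.6 ± 2.71 CPM. SORT1, a sorting receptor of the Golgi, fell from 169.8 to 55.8 CPM. Further rises were the scavenging chemokine receptor ACKR4, from 2.26 to 5.32 CPM, and the semaphorin receptor PLXNB3, from 6.52 to 14.7 CPM, with 20.4% of its exon bases in another gene. UNC5CL, a death domain protein related to netrin receptors, fell from 5.31 to 0.955 CPM, with 23.8% of its exon bases shared.

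**Figure D3:**
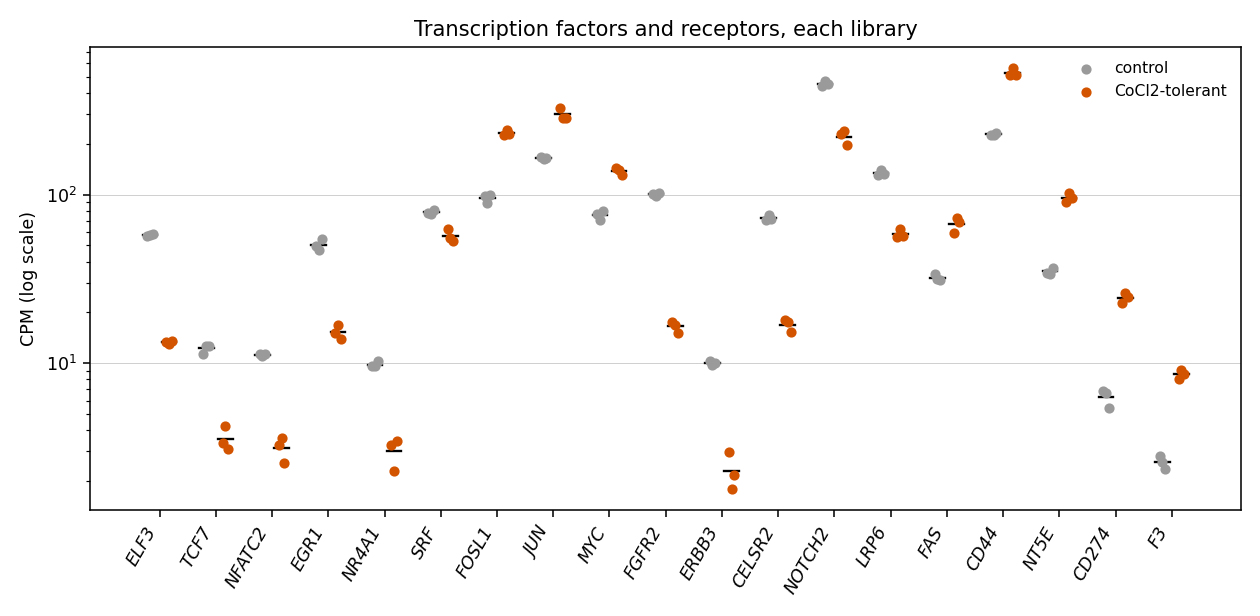
Level of 19 transcription factors and receptors in each library (points, CPM on a log scale) with the group mean (line), control in grey and CoCl2-tolerant in orange. No gene shown has overlapping groups, with FGFR2 near 100 CPM in control and at 15.1 to 17.5 CPM in CoCl2-tolerant libraries. The genes were picked by a rule that asks for no overlap or after their values were seen. Groups did not overlap for 58.2% of all genes tested.

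Among adhesion molecules, genes of epithelial junctions fell more often than they rose. The desmosome and adherens junction list counted 16 lower and 5 higher of 35, and tight and gap junction genes 19 lower and 6 higher of 36. Once the trend on length and GC was taken out, the first list counted 14 lower and 9 higher and its median log2 fold change went from -0.24 to -0.03, while the second counted 19 lower and 7 higher. CDH1, the epithelial cadherin, measured 18.8, 18.2 and 17.8 CPM in the control libraries and 1.48, 1.29 and 1.56 CPM in the CoCl2-tolerant libraries, with no overlap between the groups (log2 fold change -3.66 ± 0.12, adjusted p = 2.75e-09). The neural cadherin CDH2 rose from 207 ± 4.19 to 311 ± 12.3 CPM, and the kidney cadherin CDH16 fell from 26.9 ± 0.404 to 4.35 ± 0.189 CPM. Among plaque proteins of desmosomes, JUP fell from 244 ± 11.9 to 70.4 ± 4.94 CPM, DSP from 104 ± 1.5996 to 38.2 ± 2.66 CPM and PPL from 70.3 ± 1.15 to 20.3 ± 2.38 CPM, whereas PKP3 rose from 28.2 to 48.3 CPM. The gap junction subunit GJA1 fell from 28.3 to 12.8 CPM, and the tight junction scaffold TJP1 from 580.2 ± 23.4 to 337 ± 38.2 CPM. CLDN1, a claudin of tight junctions, rose from 193 ± 4.38 to 287 ± 25.2 CPM, the junction protein JAM2 from 2.32 to 8.58 CPM and the pannexin PANX2 from 6.496 to 24.98 CPM.

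Integrins, the receptors for matrix, counted 11 lower and 5 higher of 22, and 11 and 8 both without CoCl2-tolerant replicate 1 and with the trend on length and GC taken out. ITGA11, a collagen receptor subunit, measured 59.3, 63.4 and 62.4 CPM against 11.3, 8.78 and 7.75 CPM in control and CoCl2-tolerant libraries, with no overlap (-2.74 ± 0.12, adjusted p = 2.34e-08). ITGB6 fell from 70.7 ± 0.222 to 19.9 ± 1.59 CPM, with 20.6% of its exon bases in another gene, ITGB4, the hemidesmosome subunit, from 98.9 ± 1.93 to 33.6 ± 3.79 CPM, and ITGA4 from 48.8 ± 2.53 to 16.1 ± 0.194 CPM. ITGA5, a fibronectin receptor subunit, rose from 157 ± 5.33 to 209.5 ± 12.7 CPM and the laminin receptor subunit ITGA3 from 3102 ± 52.3 to 4221 ± 449 CPM. BCAM, a laminin-binding immunoglobulin protein, fell from 95.9 ± 3.97 to 23.4 ± 3.82 CPM. Of 51 immunoglobulin and other neuronal-type adhesion molecules, 25 fell and 7 rose, against 23 and 12 with that trend taken out. AMIGO2, a leucine-rich repeat adhesion protein, rose from 404 ± 6.05 to 976 ± 26.7 CPM (1.27 ± 0.07, adjusted p = 8.47e-08), SDK1 from 6.64 to 19.1 CPM and the calsyntenin CLSTN2 from 8.02 to 15.8 CPM.

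Secreted ligands and antagonists of the WNT and BMP pathways changed strongly in both directions. WNT2B, a WNT ligand (chromosome 1, bases 112466541 to 112530165 on the plus strand in GRCh38), measured 121, 124 and 122 CPM in the control libraries and 11.7, 12.5 and 10.2 CPM in the CoCl2-tolerant libraries. The tolerant libraries were all far lower, with no overlap (log2 fold change -3.42 ± 0.09, adjusted p = 7.95e-10), and 21.2% of its exon bases lie in another gene. The WNT antagonist SFRP1 fell from 54.2 ± 0.269 to 12.4 ± 0.883 CPM, and WNT3 from 16.7 to 8.899 CPM, while WNT5B rose from 159.9 ± 3.6998 to 216 ± 27.9 CPM. Of 16 WNT and hedgehog ligands and antagonists tested, 7 fell and 2 rose. NOG, the BMP antagonist noggin, measured 6.55, 6.77 and 5.98 CPM in the control libraries and 49.2, 38.9 and 46.3 CPM in the CoCl2-tolerant libraries. All tolerant values lay above all control values (log2 fold change 2.80 ± 0.11, adjusted p = 1.10e-08). The ligand BMP4 fell from 14.96 ± 0.836 to 4.04 ± 0.245 CPM, and the BMP modulators TWSG1 and CHRDL1 from 260.3 to 103 CPM and from 81.2 to 34.9 CPM. Of 26 TGF-beta family ligands and antagonists, 13 fell and 5 rose.

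Ligands of EGF receptors rose more often than they fell. Of 9 EGF receptor ligands and neuregulins tested, 5 rose and 2 fell, against 24.9% higher and 24.5% lower over all genes. The falls were EREG (log2 fold change -0.67) and NRG2 (-0.57), and EREG lost its call in 2 of the fits that left out 1 library. TGFA, a ligand of EGFR, rose from 141 ± 2.52 to 256 ± 18.2 CPM (0.86 ± 0.07, adjusted p = 3.13e-06), and AREG, amphiregulin, from 3.28 to 5.905 CPM. VEGFC, which acts on lymphatic vessels, rose from 14.3 ± 0.795 to 35.1 ± 2.64 CPM. Midkine (MDK), a heparin-binding growth factor, fell from 35.4 ± 1.94 to 11.7 ± 0.646 CPM and PDGFB from 371 ± 7.69 to 185 ± 15.2 CPM. IGFBP5, a binding protein of insulin-like growth factors, measured 42.5, 42.3 and 41.6 CPM against 4.23, 4.26 and 3.84 CPM in control and CoCl2-tolerant libraries and fell with no overlap (-3.36 ± 0.09, adjusted p = 9.02e-10).

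Cytokines and plasma-type proteins were mixed. CCL28, a mucosal chemokine, rose from 14.4 ± 0.721 to 41.3 ± 5.16 CPM (1.52 ± 0.10), the neutrophil attractant CXCL8 from 6.59 ± 0.669 to 17.3 ± 3.88 CPM, IL6 from 62.3 ± 0.964 to 114 ± 1.13 CPM (20.7% of exon bases shared) and IL32 from 131 ± 3.24 to 297 ± 15.01 CPM. CCL2, a monocyte attractant, fell from 9.67 to 5.095 CPM and CX3CL1 from 22.3 to 13.95 CPM. Of 24 interleukins and other cytokines, 9 rose and 4 fell. Once the trend on length and GC was taken out, 5 rose and 6 fell. SERPINE2, an inhibitor of thrombin and urokinase, measured 22.9, 21.9 and 23.1 CPM in the control libraries and 141, 152 and 145 CPM in the CoCl2-tolerant libraries. All tolerant libraries lay far above all controls (2.69 ± 0.07, adjusted p = 8.26e-10). SERPINB8 rose from 6.84 to 19.3 CPM, the urokinase PLAU from 404 ± 5.002 to 604 ± 52.1 CPM (31.1% of exon bases shared), the lipoprotein component APOL1 from 86.1 ± 1.95 to 274 ± 15.4 CPM, and the pattern recognition protein PTX3 from 3.11 to 8.74 CPM. APOE, the lipid carrier, fell from 128 ± 4.64 to 41.5 ± 4.18 CPM, and CLU, the chaperone clusterin, rose from 109.9 ± 6.24 to 223 ± 10.2 CPM. WFDC2 fell from 5.72 to 0.945 CPM.

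Guidance factors fell more often than they rose. Of 24 semaphorins, netrins and slits tested, 14 fell and 4 rose. SEMA3F, a repellent that binds neuropilins, measured 45.7, 46.2 and 47.95 CPM against 13.9, 11.9 and 9.66 CPM in control and CoCl2-tolerant libraries (-1.98 ± 0.12, adjusted p = 1.71e-07). SEMA6B, a membrane-bound semaphorin, fell from 27.5 ± 1.4003 to 1.61 ± 0.248 CPM (-4.09 ± 0.13). SEMA5A fell from 380.2 ± 13.2 to 161 ± 10.3 CPM and the ROBO ligand SLIT3 from 63.5 ± 2.75 to 20.5 ± 2.21 CPM. Among receptors of these factors, NRP2 fell from 177 ± 1.802 to 93.1 ± 7.98 CPM and ROBO1 from 62.4 to 42.8 CPM, while NRP1 rose from 43.4 ± 0.467 to 76.4 ± 4.39 CPM. PSG3 and PSG8 fell from 113 ± 2.73 to 12.1 ± 1.34 CPM and from 14.7 ± 1.31 to 1.54 ± 0.155 CPM. PSG genes are close copies of each other, so the split of reads among them is uncertain, and PSG4 rose from 67.9 to 84.98 CPM.

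The matrix class had the largest share of falls. Of 12 fibrillar and fibril-associated collagens tested, 8 fell, each at least 2-fold, and 2 rose, with a median log2 fold change of -1.23. COL1A1, a chain of type I collagen (chromosome 17, bases 50183289 to 50201632 on the minus strand in GRCh38), measured 1866, 1915 and 1915 CPM in the control libraries and 276, 246 and 246 CPM in the CoCl2-tolerant libraries. The tolerant libraries were all lower, with no overlap (-2.89 ± 0.08, adjusted p = 8.26e-10). COL1A2, its partner chain, was low in both groups and fell from 1.67 to 0.374 CPM, with overlap between the groups. COL12A1 fell from 209 ± 11.3 to 93.5 ± 3.14 CPM, COL5A1 from 30.7 to 12.4 CPM and COL5A2 from 48.7 to 23.4 CPM. COL27A1 rose from 125 ± 3.197 to 172 ± 4.596 CPM. With the length and GC trend removed this family counted 8 lower and 3 higher, with a median of -0.94.

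Basement membrane genes, which build the sheet under epithelia, fell more often than they rose. Of 20 laminins, nidogens and related glycoproteins, 12 fell and 2 rose. COL4A1 and COL4A2, chains of type IV collagen, fell from 2995 ± 44.8 to 1477 ± 65.4 CPM and from 2518 ± 40.1 to 1728 ± 116 CPM. LAMA5, a laminin chain of epithelial basement membranes, measured 129, 138 and 128 CPM against 44.3, 33.8 and 32.8 CPM in control and CoCl2-tolerant libraries (-1.83 ± 0.11, adjusted p = 1.83e-07). HMCN1, hemicentin, fell from 14.6 to 2.08 CPM, the proteoglycan HSPG2, perlecan, from 943 ± 47.6 to 485 ± 113 CPM, and nephronectin NPNT from 91.1 ± 0.464 to 31.6 ± 1.23 CPM. The rises were AGRN, agrin, from 986 ± 43.3 to 1281 ± 198 CPM, and LAMB3, a chain of laminin-332, from 18.4 ± 0.562 to 41.7 ± 6.91 CPM, whereas its partner chain LAMA3 fell from 171 to 132 CPM. With the length and GC trend removed, 11 of this family were lower and 3 higher.

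Of 55 matrix glycoproteins and matricellular proteins, 26 fell and 7 rose, and of 25 proteoglycans and hyaluronan genes 13 fell and 3 rose. FN1, fibronectin, rose from 8189 ± 103 to 12382 ± 1626 CPM (0.60 ± 0.10, adjusted p = 3.73e-04), and TGFBI from 2453 ± 60.7 to 3099 ± 293 CPM. SPARC fell from 2929 ± 57.7 to 1727 ± 85.96 CPM, the thrombospondin THBS1 from 7894 ± 201 to 5084 ± 596 CPM, and the proteoglycan versican VCAN from 1255 ± 13.7 to 659.6 ± 42.4 CPM. BGN, the small proteoglycan biglycan, fell from 7.16 to 0.567 CPM (-3.66 ± 0.18). HAS3, a hyaluronan synthase, measured 109.6, 118 and 108 CPM against 27.3, 20.9 and 22.98 CPM in control and CoCl2-tolerant libraries (-2.24 ± 0.10, adjusted p = 2.34e-08). HYAL3, of the hyaluronidase family, rose from 8.396 to 17.1 CPM and the glypican GPC1 from 189 ± 4.44 to 446 ± 54.9 CPM. CCN3, a matricellular protein, rose from 23.7 ± 0.774 to 46.9 ± 2.19 CPM.

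Of 53 metalloproteases and inhibitors tested, 29 fell and 9 rose. MMP11, stromelysin-3, fell from 11.5 to 1.296 CPM (-3.16 ± 0.17), ADAM19 from 69.8 ± 3.53 to 18.7 ± 1.24 CPM, the ADAMTS-like protein ADAMTSL4 from 22.6 to 6.01 CPM, and ADAMTS3, which trims procollagen, from 254 ± 4.27 to 99.9 ± 7.44 CPM. ADAMTS1 rose from 122 ± 1.703 to 235 ± 12.02 CPM and ADAM8 from 3.76 to 8.93 CPM. Collagen-modifying enzymes counted 10 higher and 10 lower of 28. The 4 that are in the hypoxia list all rose, and outside it 6 were higher and 10 lower of 24. The rises included the cross-linking oxidase LOX, from 175 ± 5.57 to 538 ± 61.4 CPM, and the prolyl hydroxylase subunit P4HA2, from 114 ± 2.96 to 277 ± 37.6 CPM, both in the hypoxia list. LOXL4, a related oxidase outside it, fell from 448 ± 13.01 to 220.0 ± 24.7 CPM.

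**Figure D4:**
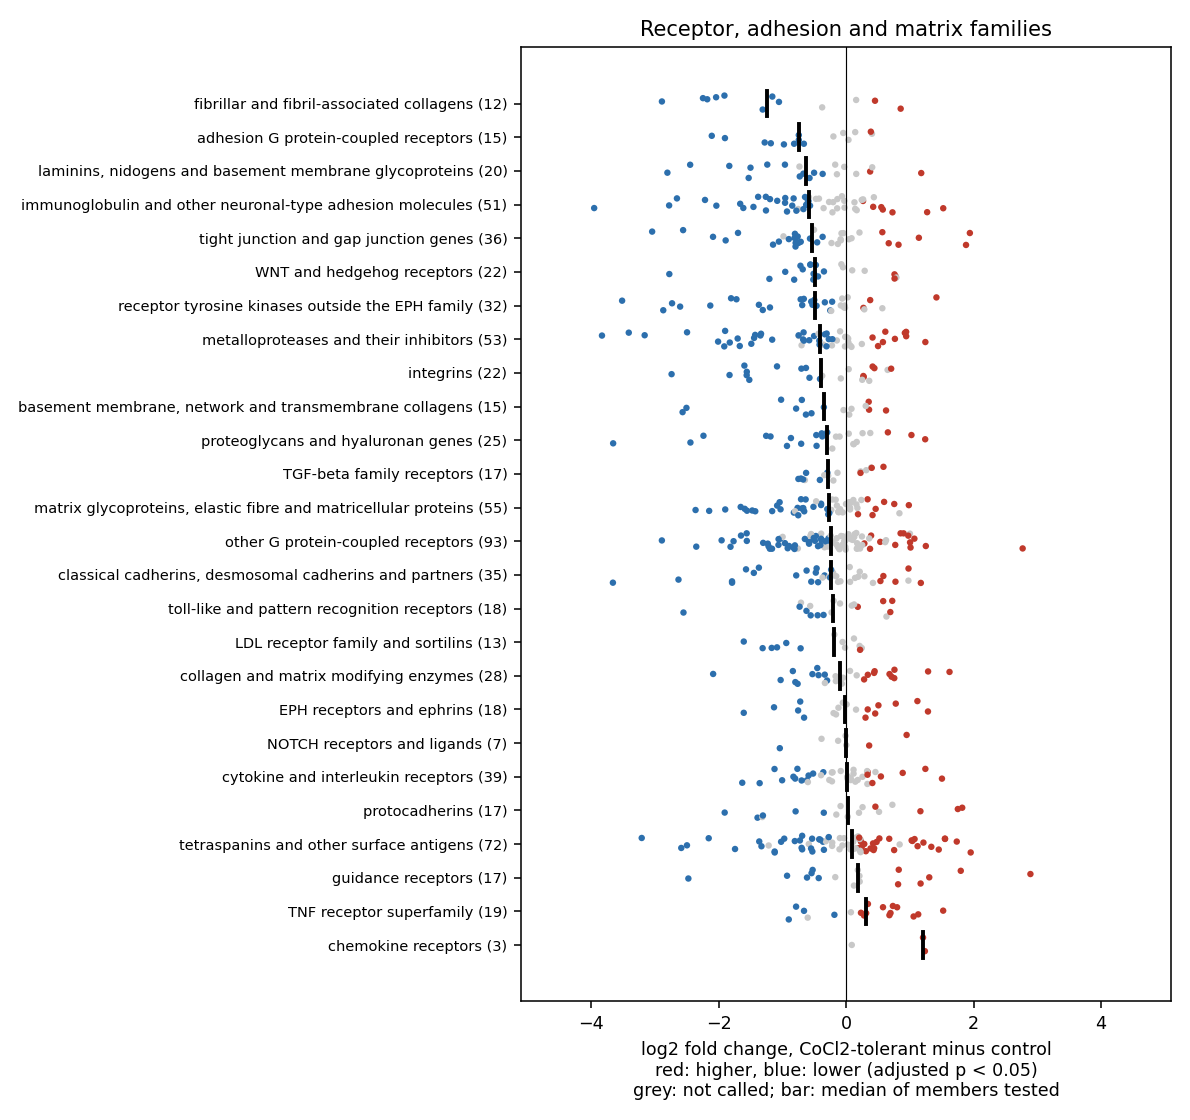
Log2 fold change (x axis, CoCl2-tolerant minus control) of every tested member of 26 receptor, adhesion and matrix families (rows, number tested in brackets), red where higher, blue where lower and grey where not called, with the family median as a black bar. Fibrillar collagens have the lowest median (-1.23), and among families with more than 3 members tested the TNF receptor superfamily has the highest (0.31).

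Transporters of solutes changed in both directions, and ion channels and pumps leaned lower. SLC34A2, a sodium-dependent phosphate carrier (chromosome 4, bases 25648011 to 25678748 on the plus strand in GRCh38), measured 361, 356 and 369.8 CPM in the control libraries and 28.6, 30.1 and 28.6 CPM in the CoCl2-tolerant libraries. The tolerant libraries were all far lower, and values within each group were close together (log2 fold change -3.64 ± 0.07, adjusted p = 7.84e-11). The ubiquitous phosphate carriers moved in opposite ways, SLC20A2 falling from 129.7 ± 1.88 to 57.2 ± 2.298 CPM and SLC20A1 rising from 206 ± 4.77 to 298 ± 10.7 CPM. SLC6A13, a carrier of the GABA transporter family, fell from 9.66 to 0.817 CPM, the prostaglandin carrier SLCO2A1 from 13.996 ± 1.099 to 2.29 ± 0.510 CPM, and the thiamine carrier SLC19A3 from 6.32 to 1.03 CPM. Folate carriers SLC19A1 and SLC46A1 fell from 45.4 to 29.7 CPM and from 10.5 to 5.898 CPM, the latter with 61.5% of exon bases shared, as did the folate receptor FOLR1 above. SLCO2B1, an organic anion carrier, measured 2.23, 2.74 and 2.37 CPM against 13.4, 10.997 and 10.9 CPM in control and CoCl2-tolerant libraries and rose (2.26 ± 0.14, adjusted p = 2.23e-07). SLC47A1, a drug and toxin exporter, rose from 2.61 to 9.496 CPM.

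Of 36 amino acid transporters, 18 rose and 9 fell. The 8 in the hypoxia, NRF2 or ATF4 lists gave 7 of the rises, and outside the lists 11 rose and 9 fell of 28. Among these SLC15A4, a lysosomal histidine and peptide carrier, rose from 51.5 ± 2.28 to 109 ± 2.79 CPM and the creatine carrier SLC6A8 from 80.8 ± 1.95 to 155 ± 14.9 CPM. SLC7A6 and SLC7A2 fell from 32.6 to 12.2 CPM and from 8.19 to 3.29 CPM, the former with 55.6% of exon bases shared. Of 39 metal ion transporters tested, 6 rose and 11 fell, 43.6% against 49.4% of all genes. SLC11A2, the importer of divalent metals (DMT1), was at 86.3 and 87.7 CPM and did not pass, nor did SLC39A14 at 142 and 159 CPM or the zinc exporter SLC30A1 at 74.4 and 73.3 CPM. SLC39A8, which imports zinc and manganese, rose from 17.1 ± 0.535 to 21.97 ± 2.06 CPM, and the copper importer SLC31A1 from 56.2 ± 2.99 to 73.6 ± 3.15 CPM. The iron exporter SLC40A1 fell from 33.8 ± 0.807 to 21.6 ± 0.951 CPM, and the copper pumps ATP7A and ATP7B from 9.68 to 6.49 CPM and from 14.4 to 7.22 CPM. Without CoCl2-tolerant replicate 1, 11 metal transporters were higher and 14 lower, and once the trend on length and GC was taken out 12 and 14.

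Mitochondrial carriers counted 18 higher and 11 lower of 50 (36 and 22%, against 24.9 and 24.5% of all genes). With the length and GC trend removed they counted 16 higher and 13 lower, and their median log2 fold change went from 0.16 to 0.08. UCP2, an uncoupling protein of the inner membrane, measured 43.7, 43.96 and 43.96 CPM against 6.78, 6.55 and 5.25 CPM in control and CoCl2-tolerant libraries, with no overlap (-2.83 ± 0.10, adjusted p = 5.78e-09). SFXN2 fell from 40.9 ± 0.854 to 11.4 ± 0.927 CPM and SLC25A29, a carrier of basic amino acids, from 32.2 ± 1.63 to 9.86 ± 0.952 CPM. SFXN3, a serine carrier, rose from 95.5 ± 2.395 to 178 ± 9.18 CPM and SLC25A4, an ADP/ATP exchanger, from 23.04 ± 0.372 to 42.7 ± 3.13 CPM. ABCB6, a porphyrin transporter, rose from 2.08 to 6.46 CPM, but 54.7% of its exon bases overlap another gene, and ABCA5 rose from 3.72 to 9.06 CPM.

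Of 100 sodium, calcium, chloride and other channels tested, 48 fell and 19 rose, and of 28 ion pumps and lipid flippases 14 fell and 3 rose. With the length and GC trend removed these counts were 42 and 25 for the channels and 13 and 6 for the pumps. TRPV4, a calcium channel gated by osmotic and mechanical stimuli, fell from 18.7 ± 1.68 to 5.05 ± 0.846 CPM (-1.89 ± 0.13, adjusted p = 5.45e-07), and SCNN1A, the epithelial sodium channel subunit, from 6.32 to 1.83 CPM. PIEZO1, a mechanosensitive channel, rose from 263 ± 10.4 to 354 ± 64.7 CPM, with 20.2% of exon bases shared. FXYD2, the regulatory subunit of the renal sodium pump, rose from 17.8 ± 1.697 to 33.9 ± 4.77 CPM.

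**Figure D5:**
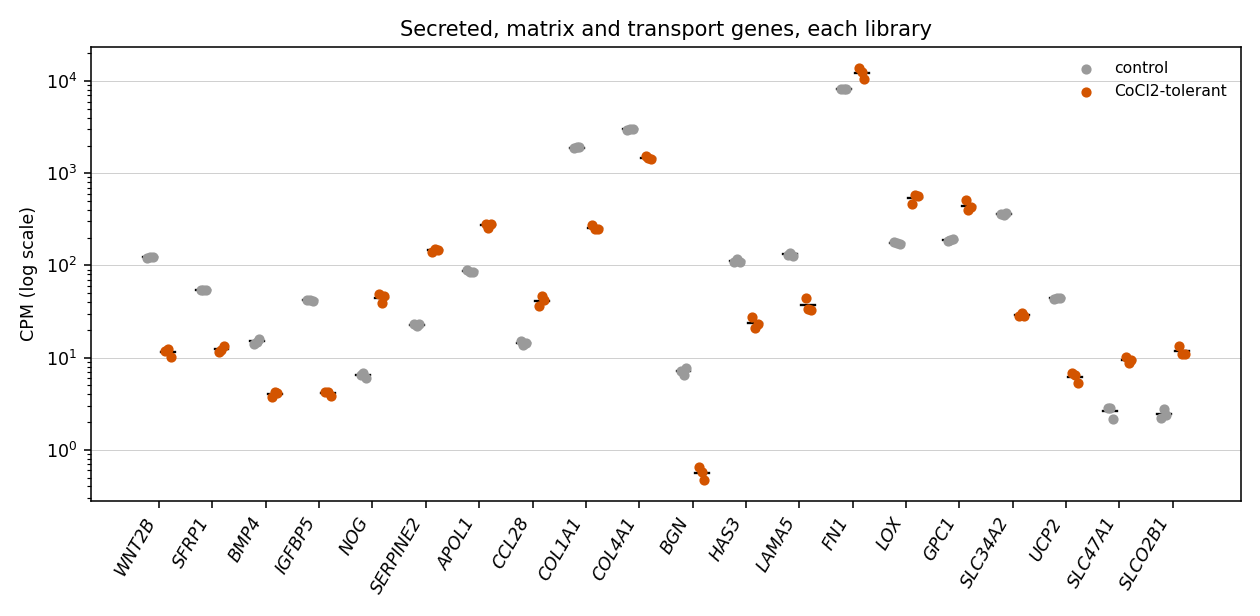
Level of 20 secreted, matrix and transport genes in each library (points, CPM on a log scale) with the group mean (line), control in grey and CoCl2-tolerant in orange. No gene shown has overlapping groups, with SLC34A2 at 356 to 369.8 CPM in control and 28.6 to 30.1 CPM in CoCl2-tolerant libraries. The genes were picked by a rule that asks for no overlap or after their values were seen, and 58.2% of all genes tested had none.

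Among the largest changes over all genes, several lay outside the 6 classes. CNN1, the smooth muscle protein calponin, fell from 5.03 to 0.125 CPM, with 473 counts over the control libraries and 10 over the CoCl2-tolerant ones. Its log2 fold change was -5.28 ± 0.29 in all libraries and -5.95 without CoCl2-tolerant replicate 2. NEDD9, a scaffold of focal adhesions, fell from 16.7 ± 0.771 to 1.58 ± 0.340 CPM (-3.39 ± 0.14, adjusted p = 1.67e-08). RASL12 and LARGE2 fell by 6.15 and 5.79 on the log2 scale, FLJ16779, annotated as antisense, by 4.37, and cardiac actin ACTC1 by 3.98. RIMKLA, which makes N-acetylaspartylglutamate, rose from 6.096 ± 0.467 to 37.3 ± 1.08 CPM (2.61 ± 0.09, adjusted p = 5.21e-09). C2orf72 and LURAP1L rose by log2 3.18 and 2.90, and the arrestin-like ARRDC4 and TXNIP by 2.31 and 2.23. FBXW10B rose from 1.34 to 7.82 CPM and PDK1-AS1, an antisense transcript, from 1.91 to 9.04 CPM, with 36.7 and 20.3% of exon bases in other genes, so their reads are uncertain. BOLA2B, which has a near-identical copy, measured 2.19, 1.504 and 2.11 CPM in the control libraries and 3.41, 23.03 and 2.895 CPM in the CoCl2-tolerant libraries. Only CoCl2-tolerant replicate 2 was far above control, and the gene's log2 fold change was 2.35 with that library and 0.71 without it.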

How the data were processed

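Raw read counts per gene, as deposited, were used for 3 control and 3 CoCl2-tolerant libraries. The build was GRCh38 and the tools included featureCounts and DESeq2, per the submitters' processing notes, which list no version. Which aligner, which annotation and whether strand was used in counting is not given in the sources used here, so reads of overlapping and antisense genes cannot be told apart. Gene positions, transcript lengths and shared exon bases were taken from GENCODE release 29.

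Genes were kept with edgeR's filterByExpr by group, normalised by TMM and tested with edgeR's quasi-likelihood test on the 6 libraries, with Benjamini-Hochberg adjustment over 17314 genes and a threshold of 0.05. CPM used the effective library size. A log2 fold change's SE is its size divided by the square root of the F statistic. Software was R 4.3.3, edgeR 4.0.16, DESeq2 1.42.0, limma 3.58.1, matplotlib 3.10.9, pandas 2.3.3, numpy 2.4.6 and Python 3.11.15. The procedure was tested on simulated data. The 15 alternatives changed the test, scaling, filter, set of libraries, replicate block or length and GC correction.

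Members and lists were chosen with earlier results of these data known. Named genes were, outside the hypoxia, NRF2 and ATF4 lists, up to 6 rises and 6 falls per class (at least 5 CPM in the higher group), up to 2 each per family (at least 2 CPM) and the 12 largest each over all genes, all past the threshold with no overlap between groups, plus the lineage markers. Further genes were chosen after their values were seen: ADAM19, ADAMTS3, ATP7A, AXL, CD24, CD9, CHRDL1, CLDN1, CLU, COL12A1, COL4A1, COL4A2, COL5A1, COL5A2, CX3CL1, DSP, EDA2R, EGFR, ERBB2, FAS, FGFR4, FN1, FOS, FOSB, FOSL2, FZD2, FZD3, FZD7, GJA1, GLI2, GLI3, HSPG2, IL6, ITGA4, ITGA5, ITGB4, JUN, JUNB, JUP, LAMA3, LAMA5, LOX, LRP5, MRTFA, MRTFB, NFAT5, NOTCH1, NPNT, NRP1, P4HA2, PDCD1LG2, PIEZO1, PLAU, PLAUR, PPL, PSG4, ROBO1, SCNN1A, SEMA5A, SLC11A2, SLC19A1, SLC20A2, SLC25A29, SLC25A4, SLC30A1, SLC31A1, SLC39A14, SLC39A8, SLC40A1, SLC46A1, SLC7A2, SLC7A6, SLIT3, SMO, SPARC, SRF, TEAD1, TEAD2, TEAD4, TGFBI, THBS1, TJP1, TNFRSF10B, TNFRSF10D, TWSG1, VCAN, WNT3 and YAP1. Groups did not overlap for 58.2% of all genes tested. Some genes that the rule selects are not reported here.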

Additional observations from a re-analysis of the deposited data

How the results depend on the processing

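Of the 257 genes named by rule, 0 changed direction under the 15 alternatives and 0 to 6 lost their call under each. These genes were chosen for passing in the 6-library fit with no overlap between groups. The absence of reversals follows largely from that choice, so these counts are no test of the calls. Requiring at least 5 CPM in 3 libraries left 11313 genes and gave no value for 63 named genes. Under it 299 genes were at least 2-fold higher and 427 at least 2-fold lower, and 50 secreted factors rose and 51 fell. That filter tests fewer genes. Leaving out 1 library gave 6823 to 10289 genes called, the highest without CoCl2-tolerant replicate 1, and rises made up 48.3 to 50.8% of the calls. A fit over all 9 libraries called 3204 genes higher and 3255 lower, against 4308 and 4244 in the 6-library fit, and the DESeq2 Wald test called 3931 and 4018. Residuals of same-numbered libraries correlated at -0.0959, -0.104 and 0.00766, and those of differently numbered libraries at -0.0587 to 0.132. With 3 libraries per group these values cannot decide whether the replicate numbers pair the libraries. With a replicate block 3710 genes rose and 3823 fell. At these depths 3 counts correspond to 0.0918 to 0.119 CPM, so changes of genes near that level were not detectable.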
